A study of Mus musculus with 21 samples.

Results

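Restriction-only regions are stretches of the mouse autosomes that carried called H3K36me3 in wild-type C2C12 cells under methionine restriction and in none of the unrestricted wild-type libraries. A base was kept when it lay inside peaks of both day 1 restricted libraries or of both day 5 restricted libraries, and inside no peak of the 2 day 0, 2 day 1 control and 2 day 5 control libraries. Contiguous intervals of at least 500 bp on chromosomes 1 to 19 were retained. This gave 314 regions covering 205 kb, out of 7882 intervals of any length that met the same conditions. The peaks of all 20 lists merged into 146677 regions, each of which can hold several of the 314 or none. The regions were selected on the WT peak lists themselves, so their presence under restriction and their absence elsewhere in wild-type cells are the selection and not a result.

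The study followed H3K36me3 by ChIP-seq, sequencing of immunoprecipitated chromatin, in C2C12 cells, mouse myoblasts that can fuse into myotubes in culture. Wild-type (WT) cells gave 2 replicate libraries at day 0, and 2 in control medium and 2 under methionine restriction at both day 1 and day 5. From the lines that the labels call Setd2 KO, KO line 1 and KO line 2, there was 1 library for each of these 5 conditions, and the peak names inside the KO lists call these libraries replicates 1 and 2, where the labels, which were followed, call them lines. The labels do not say whether replicates were separate cultures, so p-values measure only the spread between these libraries.

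H3K36me3 is trimethylation of lysine 36 of histone H3. SETD2 places it while travelling with elongating RNA polymerase II, so the mark builds up over the bodies of transcribed genes and usually grows towards their 3′ ends. The methyl group comes from S-adenosylmethionine, which cells make from methionine, and myoblasts that differentiate leave the cell cycle and switch on muscle genes.

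Of the 314 regions, 4 overlapped the promoter window of an annotated RefSeq gene, each time a non-host gene lying within a longer host gene. These are the only regions for which sequence was at hand, and the windows of 3 of them are printed to show what such a region holds. The window runs from 250 bases before to 50 bases after the annotated start, 5′ to 3′, on the plus strand of GRCm38 for all 3 genes, and capitals mark the bases inside the restriction-only region. The Gm39214 window at chr8:85726149-85726448 belongs to one of 3 regions where peaks of all 4 restricted libraries shared at least 500 bp, the Gm52239 window at chr16:89794130-89794429 to a region of 1413 bp, and the Gm51623 window at chr1:54518843-54519142 to a region 20.7 kb away from any unrestricted peak.
Gm39214 (inside Itfg1): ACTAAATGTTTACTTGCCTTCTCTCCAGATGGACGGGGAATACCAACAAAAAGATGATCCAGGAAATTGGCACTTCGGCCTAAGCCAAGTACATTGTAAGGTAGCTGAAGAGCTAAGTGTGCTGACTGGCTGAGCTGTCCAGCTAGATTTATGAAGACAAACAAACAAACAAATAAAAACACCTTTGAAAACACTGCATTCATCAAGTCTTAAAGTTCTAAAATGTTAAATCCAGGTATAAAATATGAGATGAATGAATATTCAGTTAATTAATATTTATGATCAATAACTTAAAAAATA
Gm52239 (inside Tiam1): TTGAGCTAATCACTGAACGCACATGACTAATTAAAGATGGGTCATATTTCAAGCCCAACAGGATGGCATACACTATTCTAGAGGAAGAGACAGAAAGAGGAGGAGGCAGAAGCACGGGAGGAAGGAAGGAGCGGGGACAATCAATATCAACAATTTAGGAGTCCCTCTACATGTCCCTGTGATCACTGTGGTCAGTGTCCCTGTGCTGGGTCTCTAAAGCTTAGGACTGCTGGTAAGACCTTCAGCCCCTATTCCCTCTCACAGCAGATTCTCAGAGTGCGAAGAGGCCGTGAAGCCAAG
Gm51623 (inside Pgap1): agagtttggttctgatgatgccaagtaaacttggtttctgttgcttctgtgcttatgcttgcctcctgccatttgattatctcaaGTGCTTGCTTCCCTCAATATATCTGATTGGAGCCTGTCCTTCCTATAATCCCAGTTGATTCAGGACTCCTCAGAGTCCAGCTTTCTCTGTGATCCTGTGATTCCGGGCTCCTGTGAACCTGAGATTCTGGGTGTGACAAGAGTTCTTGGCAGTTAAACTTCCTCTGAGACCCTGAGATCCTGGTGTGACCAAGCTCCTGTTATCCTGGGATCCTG
The Gm39214 window was 34% G or C and held 2 CG dinucleotides, and the Gm52239 window was 49% G or C with 5 of them. The Gm51623 window was 47.3% G or C with 1 CG. Over the 31396 RefSeq promoter windows of the same length the median was 53% G or C with 7 CG dinucleotides, so the 3 windows printed lay below the median in both. The remaining window, of 4930500A05Rik inside Plekhh2, was 53.7% G or C, above that median, with 3 CG dinucleotides.

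The lists carry no read depth, so depth is unknown, and a short list can come from few reads. Restricted WT lists covered less of the autosomes (108 to 132 Mb over the 4 lists) than unrestricted WT lists (138 to 181 Mb over 6). The KO line 1 lists covered 0.302 to 73.2 Mb and the KO line 2 lists 0.00782 to 7.06 Mb. Cover of the Setd2 gene body averaged 71.8% at WT day 0, against 3.16% in KO line 1 at day 0. The KO line 1 libraries of day 5 had 24.04% (control) and 2.67% (restricted) of that body inside peaks, and all 5 KO line 2 libraries had 0. All 5 myoblast markers had peaks at WT day 0, from 11.9% of the body for Myf5 to 90.7% for Cdh15. Muscle markers moved with the medium. Myod1 was at 0 in all 4 restricted WT lists and at 50.1% to 78.4% in the 6 unrestricted ones. At day 5 Myog was covered to 91.7% and 93.4% in control and to 0 in both restricted libraries, and Neb to 95.7% and 95.1% in control and 81.2% and 84.5% under restriction. On the list of myogenic genes limma called 29 of 30 lower under restriction at day 5, beside 41.5% of all genes. Restricted and control libraries of a day thus differed in muscle gene cover as well, and the part of that in the regions was not tested. Among markers of adipocytes, endothelium, blood cells, neurons and pluripotent cells, only Tubb3 (at most 64.3%), Pparg (at most 4.46%) and Rbfox3 (at most 0.0678%) had any cover in a WT library. A list gives the position and extent of peaks and not the amount of the mark, and less mark per cell cannot be told apart from fewer marked cells.

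The regions were short. Their median length was 593.5 bp, with quartiles at 533.25 and 711.75 bp, and 161 of 314 were under 600 bp. Only 12 reached 1 kb. The 5 regions nearest the length threshold from above measured 500, 500, 501, 502 and 503 bp, in Tenm3, Nod2, Fastkd1, Lsmem1 and Zgrf1. The 5 nearest from below measured 497, 498, 498, 498 and 499 bp and were left out. Before the length minimum the 7882 intervals had a median of 117 bp, and the 314 retained hold 15.7% of their bases. As a share of the 123 Mb shared by both restricted libraries of a day, the bases missing from all 6 unrestricted lists made up 1.06%, those in 1 of the 6 made up 2.36%, and those in all 6 made up 60.4%.

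By day, 96 regions were built from the day 1 pair alone, 157 from the day 5 pair alone and 61 from both pairs. The day 1 regions covered 58.3 kb, the day 5 regions 108 kb and the regions of both days 39.1 kb. Few regions filled every restricted list. At least 50% of the region lay in peaks of 2 restricted libraries for 212 regions, of 3 for 78 and of 4 for 24. When peaks of all 4 restricted libraries were required over at least 500 bp, 3 intervals were left, in Itfg1 (616 bp), Ccdc138 (576 bp) and Pot1b (567 bp). Pot1b encodes a protein of the complex that caps telomeres. The peaks that carried the regions were weaker than all peaks of their lists by the median in the day 1 lists. Their median −log10 q, as the authors' peak caller gave it, was 2.25 and 1.89 in the day 1 restricted replicates, against 2.36 and 2.26 over all peaks of those lists. In the day 5 restricted replicates it was 2.46 and 2.70, against 2.44 and 2.50. A −log10 q of at least 3 was reached by 15.3% and 8.92% of them at day 1, against 29.7% and 25.05% of all peaks, and by 33.5% and 40.4% at day 5, against 34.9% and 36.6%. Median widths were 1183 and 966 bp at day 1, against 807 and 775 bp, and 1543 and 1673.5 bp at day 5, against 848 and 846 bp. The length minimum of 500 bp asks for wide peaks, so the widths describe the selection.

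The rule was also run with the media exchanged, keeping bases in both control libraries of day 1 or of day 5 and in no day 0 or restricted list. This mirror set held 5656 control-only regions over 5285 kb, 18.01 times as many regions and 25.7 times as many kb as the restriction-only set. Its members were longer, with a median of 735 bp and 26.2% at or above 1 kb, where the restriction-only set had 3.82%. Day 5 alone supplied 4847 of them and day 1 alone 91. The ratio depended on which peaks of the lists were kept. When every WT list was shortened by −log10 q to the covered length of the shortest one, 5073 restriction-only and 3621 control-only regions were found, so the order of the sets turned round. At a −log10 q of at least 3 in all lists the numbers were 981 and 4232. Leaving out 1 library also moved the restriction-only number by more than 1.5 times for 7 of the 10 libraries. It was 1342 or 2169 without day 1 restricted replicate 1 or 2, and 1562 or 1410 without day 5 restricted replicate 1 or 2. Among unrestricted libraries it was 670 without day 0 replicate 1, and 574 or 506 without day 5 control replicate 1 or 2.

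**Figure D1:**
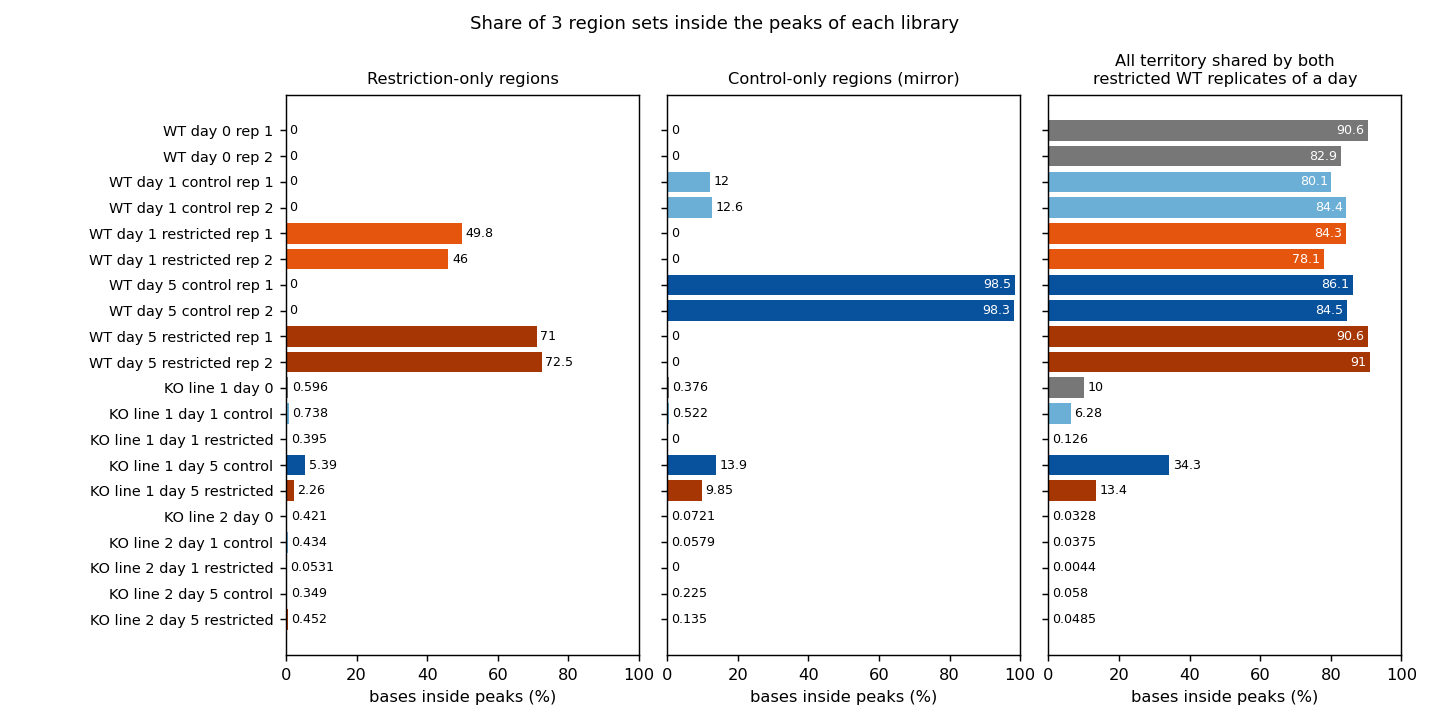
Bars show, for each of the 20 libraries, the percent of bases of 3 region sets that lay inside its peaks: the 314 restriction-only regions, the 5656 control-only regions, and all territory shared by both restricted WT replicates of a day. The WT bars of the first 2 panels follow from the rules, and the KO bars, up to 5.39% and 13.9% there, were not used by them.

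In the lists as deposited most regions adjoined called mark of the unrestricted libraries. The share depended on the setting, with 44.6% in lists shortened to equal length and 72.9% at a −log10 q of at least 3. A region touched a peak of an unrestricted WT list on at least 1 side in 200 cases (63.7%), on 1 side in 136 and on both sides in 64. In the mirror set 52.6% touched a peak of the opposing lists. Only 40 restriction-only regions lay more than 1 kb from any unrestricted peak, 14 more than 5 kb and 4 more than 100 kb. Touching was found for 52.1% of day 1 regions, 64.3% of day 5 regions and 80.3% of regions of both days. Of the 200 touching regions, the 64 between unrestricted peaks on both sides filled gaps, and the others extended a peak on 1 side.

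Gene bodies overlapped 304 of the 314 regions (96.8%) by any number of bases. For 300 of them the host was protein-coding, and 13 regions overlapped more than 1 gene. The gene table gives gene bodies without exons, so exonic and intronic positions are not given. The mirror set lay in genes to 96.5%. The 231 protein-coding host genes were 1.26% of the 18370 protein-coding autosomal genes of at least 2 kb. Hosts were long, with a median of 82.5 kb against 21.4 kb over those 18370 genes and 58.7 kb for hosts of the mirror set. In the 6 unrestricted lists the host of a region was covered on average to under 10% for 126 of 300 regions, to between 10% and 50% for 158 and to at least 50% for 16. A single region was held by 191 hosts, and 40 hosts held 2 or more.

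Regions leaned towards the 3′ ends of their hosts. Host strand was known for 245 regions, whose median position was 70.2% of the way from the 5′ end, and 43.3% of them lay in the last 25% of the gene. Control-only regions had a median position of 51.5%, with 25.4% in that stretch (4055 regions with strand). Restricted peak territory as a whole, taken in 600 bp tiles, had a median of 67.8% and 40.4% in that stretch, close to the values of the restriction-only regions. By day, the median was 55.6% for the 70 day 1 regions with strand, with 25.7% in that stretch, and 77.4% for the 133 day 5 regions, with 52.6% in that stretch. These are descriptions, since neighbouring regions share hosts and libraries, and no test was made.

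**Figure D2:**
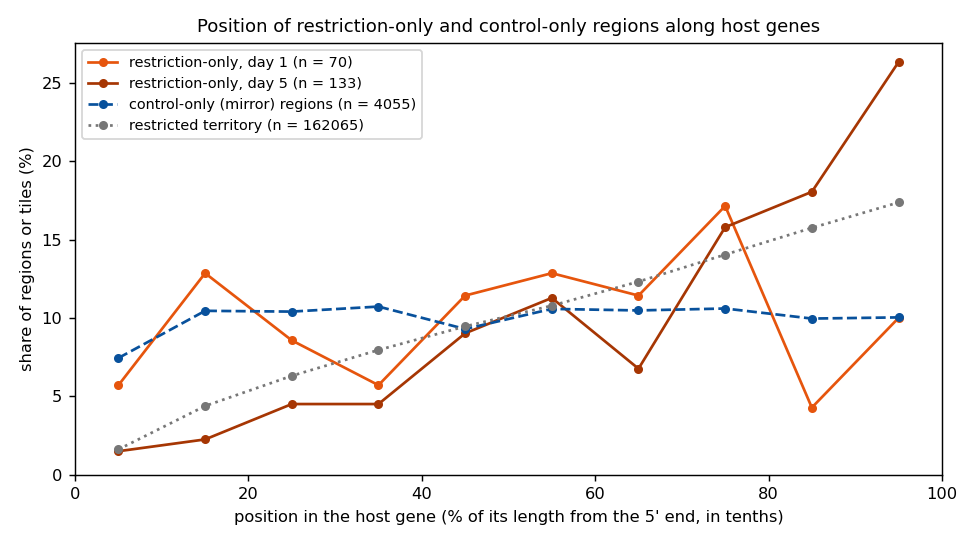
Lines give the percent of regions, or of 600 bp tiles for the restricted territory, whose centre fell in each 10% of the length of the host gene from the 5′ end. Day 5 restriction-only regions reach 26.3% in the last bin, day 1 regions hold 10% there, and control-only regions stay between 7.45% and 10.7% in every bin.

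The longest region, chr11:12248939-12251779 (2841 bp), lay at 94.0% of the length of Cobl, which encodes an actin nucleator. It was covered in both day 5 restricted libraries, with −log10 q of 3.54 and 3.40 for the peaks that carried it, and it ended 94 bp from an unrestricted peak. Cobl held 3 further regions, all between 92.9% and 99.4% of its length. Gene body cover of Cobl was 16.1% and 16.4% in the day 5 restricted replicates and 17.1% and 17.8% in the day 5 control replicates. Day 0 gave 0.163% and 0.26%, day 1 control 1.15% and 0.25%, and day 1 restricted 0.773% and 0.127%. The whole gene was therefore as widely covered in day 5 control as in day 5 restricted libraries, and its regions were 3′ stretches that only the restricted lists held.

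Osmr, the β subunit of the oncostatin M receptor, held 2 regions of over 1 kb, chr15:6825831-6827334 (1504 bp) and chr15:6845496-6846728 (1233 bp). Its cover was 40.5% and 44.1% in the day 5 restricted replicates, 20.4% and 15.3% in day 5 control and 15.98% and 14.9% at day 0. At day 1 it was 2.43% and 1.30% in control and 10.1% and 7.55% in restricted medium. Both day 5 restricted libraries lay above all 8 others from WT cells. Cp, which encodes the copper-binding ferroxidase ceruloplasmin, held another, chr3:19976380-19977585 (1206 bp). Its cover was 26.0% and 26.9% in day 5 restricted libraries and at most 14.2% in any other WT library.

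Tiam1, an activator of the GTPase Rac1, held 5 regions with 4351 bp in all. The longer ones, chr16:89793797-89795209 (1413 bp) and chr16:89797107-89798287 (1181 bp), lay at 97.9% and 97.0% of the gene. Cover of Tiam1 was 8.67% and 7.38% in day 5 restricted libraries, 0.155% and 0.336% in day 5 control and 1.76% and 2.80% at day 0. Epha4, a receptor tyrosine kinase for ephrins, held 4 regions, among them chr1:77372343-77373531 (1189 bp) and chr1:77398369-77399471 (1103 bp), the latter built from both days. Its cover was 11.4% and 12.3% in day 5 restricted and 1.20% and 1.82% in day 5 control libraries. At day 0 it was 6.23% and 4.08%, and at day 1 it was 0.336% and 1.69% in control and 6.68% and 6.54% in restricted medium. In Epha4 both restricted pairs thus lay above all 6 unrestricted libraries, by a small margin at day 1.

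Patj, a scaffold of cell junctions and polarity complexes, held most regions, 8 with 6423 bp, 7 of them between 73.1% and 91.0% of its length. The longest of these were chr4:98673307-98674679 (1373 bp) and chr4:98651495-98652544 (1050 bp). Cover of Patj was 17.5% and 19.9% in day 5 restricted, 12.4% and 10.05% in day 5 control and 0.681% and 0.834% in day 0 libraries. Itgb8, an integrin subunit that serves in the activation of latent TGF-β, held 5 regions with 3287 bp. It was nearly bare in unrestricted cells. Its cover was 19.2% and 19.1% in day 5 restricted libraries, 0 and 0.845% in day 5 control, 0.534% and 0 at day 0, 0.556% and 3.10% in day 1 control and 5.90% and 0.745% in day 1 restricted libraries.

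**Figure D3:**
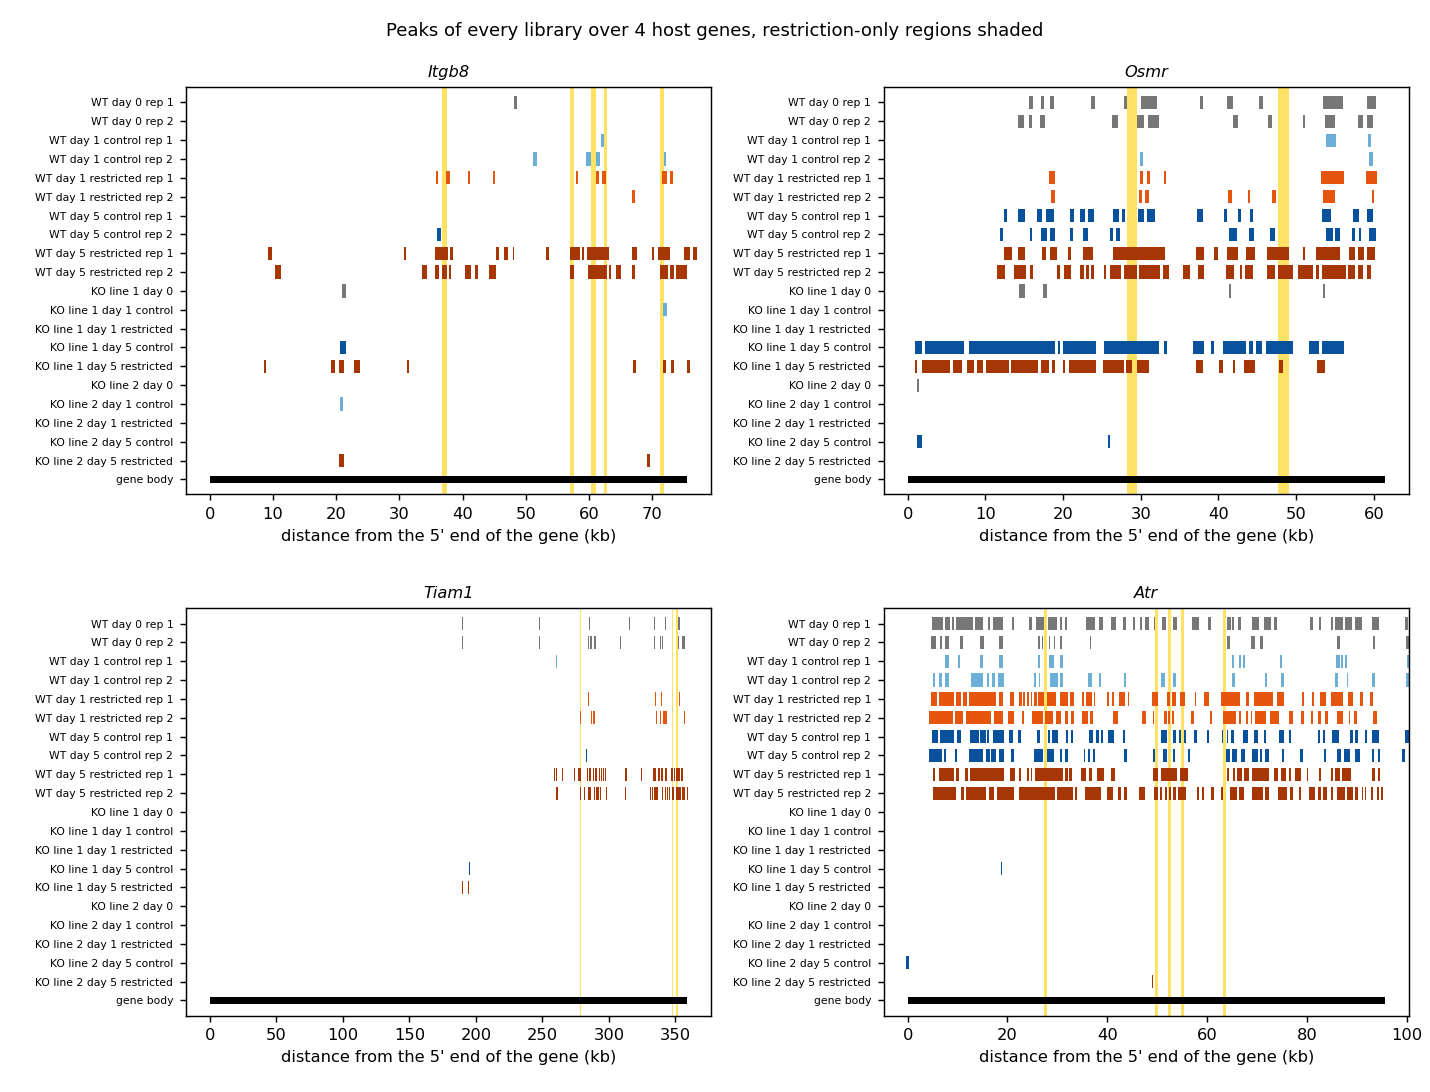
Peaks of all 20 libraries are drawn along Itgb8, Osmr, Tiam1 and Atr by distance in kb from the 5′ end of the gene, with restriction-only regions shaded across all lists. In Itgb8 and Tiam1 the day 5 restricted lists hold more peaks than those of any other WT condition, in Atr the regions fall among peaks of every WT condition, and in Osmr the KO line 1 day 5 control list covers both regions and the restricted list parts of them.

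Among the 12 longest regions, the others lay in Ppip5k1, an inositol pyrophosphate kinase (chr2:121348880-121349951, 1072 bp), and in Slco3a1, an organic anion transporter (chr7:74294522-74295585, 1064 bp). Among the 12 hosts with most restriction-only bases, Nbas, Ptpre and Alms1 held 2360, 2243 and 2223 bp. Alms1, which encodes a protein of the centrosome and the base of cilia, differed from the hosts above in its days. Its cover was 15.8% and 8.28% at day 0, 17.8% and 15.7% in day 1 restricted and 5.32% and 8.48% in day 1 control libraries, and at day 5 it was 0.569% and 0.845% in control and 3.97% and 3.36% in restricted medium. In Ptpre, a receptor-type tyrosine phosphatase, the day 5 restricted values of 4.95% and 6.13% overlapped the day 0 values of 4.16% and 5.11%.

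**Figure D4:**
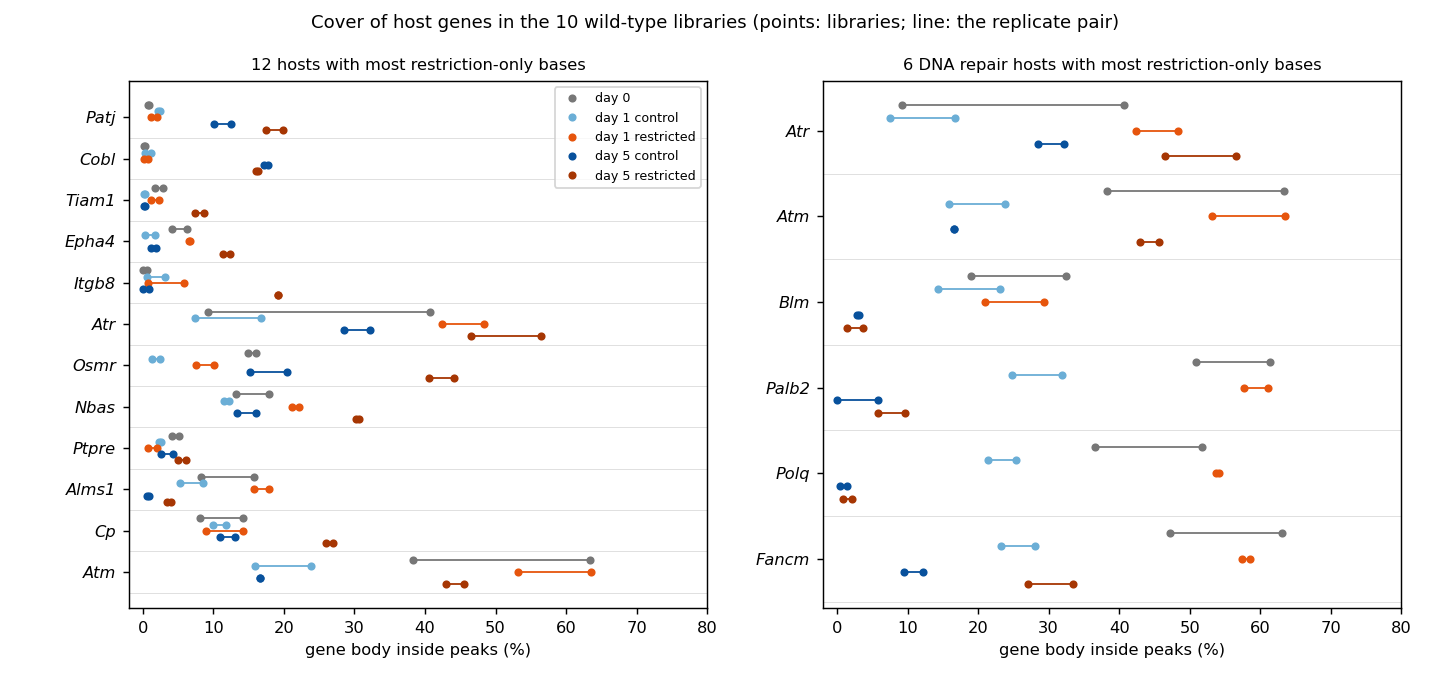
Points give the percent of the gene body inside peaks in each of the 10 WT libraries, and a line joins the 2 replicates of a condition, for the 12 hosts with most restriction-only bases and for the 6 hosts on the DNA repair list with most such bases. In 8 of the 12 hosts on the left both day 5 restricted points lie above all 6 unrestricted points, and in Atr the day 0 replicates lie at 40.6% and 9.20%.

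The regions made up a small share of host length. They filled a median of 0.946% of the host body, and 6 hosts reached 5%. These were Zbed5 (7.52%), Ndufa5 (7.06%), Zfp429 (6.93%), Zfp709 (6.53%), Mmut (6.23%) and Gm10509 (5.98%). Zbed5 had no peak in the 6 unrestricted libraries, and its cover was 2.51% and 0 in day 1 restricted and 13.9% and 7.52% in day 5 restricted libraries. Gpr153, an orphan G protein-coupled receptor, likewise had none, and its cover was 21.7% and 8.63% at day 5 under restriction. Zfp709 was at 0 in the day 0 and day 1 control libraries and at 10.7% and 12.1% in day 1 restricted ones. An unrestricted WT peak lay 590 bp from its region, within the gene, so Zfp709 was not without unrestricted peaks. Ndufa5, a subunit of respiratory complex I, had cover in every WT library, from 11.9% to 54.8%. Mmut encodes the cobalamin-dependent methylmalonyl-CoA mutase, and its cover was 40.7% and 48.0% in day 5 restricted, 23.6% and 17.1% in day 5 control, 34.7% and 37.7% in day 1 restricted and 8.14% and 13.8% in day 1 control libraries. The others of the 12 highest were E130311K13Rik, Echdc2, Apmap, Osmr and Itgb8, between 4.36% and 4.83% of the body.

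Of the 11 gene lists examined, DNA repair held most hosts. On it 10 of 39 genes (25.6%) were hosts, against 1.26% of all 18370 genes. The share was 2.09% among the 9267 genes with a mean WT cover of at least 5%. The lists were chosen with earlier results of these data known. Genes of this list had a median length of 58.0 kb against 21.4 kb over the 18370. The part of length in the share of hosts was not tested. The hosts on it included Atr and Atm, the kinases that signal DNA damage, the helicases Blm and Brip1, and the BRCA2 partner Palb2. They also included the polymerases Polq and Rev3l and the Fanconi anaemia proteins Fancm and Fanci. Atr held 5 regions with 2837 bp and Atm 3 with 1927 bp, the other 8 genes 1 or 2 regions each. The Palb2 region, 910 bp long, ran past the end of the gene and filled only 0.183% of its body.

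In Atm, Polq and Fancm, picked from the 10 hosts on this list, the day 1 restricted values lay nearer to day 0 than to day 1 control. The rule chose bases held under restriction and absent from control lists, so restricted cover above control in these hosts describes the selection. Atm was covered to 63.4% and 38.3% at day 0, 63.5% and 53.2% in day 1 restricted and 15.9% and 23.8% in day 1 control libraries. At day 5 Atm was covered to 45.6% and 42.9% under restriction and to 16.6% in both control replicates. For Atr the day 1 values were 48.4% and 42.4% under restriction and 7.45% and 16.7% in control, and the day 5 values 46.5% and 56.5% under restriction and 32.1% and 28.6% in control. Its day 0 replicates, 40.6% and 9.20%, spanned most of that range. Polq was covered to 54.1% and 53.7% in day 1 restricted libraries and to 21.4% and 25.4% in day 1 control, but at day 5 all 4 values were between 0.37% and 2.12%. Fancm showed 58.6% and 57.4% against 23.2% and 28.03% at day 1, and 27.0% and 33.4% against 9.44% and 12.2% at day 5.

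The other lists held at most 5 hosts each, beside 1.26% of all genes. Replication and licensing had 2 of 40 (5%), the primase subunit Prim2 and the helicase Mcm8. The centromere and mitosis list had 1 of 40 (2.5%), the kinetochore scaffold Knl1. The methionine cycle list had 1 of 23 (4.35%), namely Mtr, methionine synthase, which remakes methionine from homocysteine. Its region, chr13:12190763-12191498 (736 bp), lay in a gene covered to between 64.4% and 88.4% in all WT libraries. The list of H3K36 writers, erasers and readers had 1 of 26 (3.85%), Kdm4c, a demethylase of H3K9 and H3K36, with 3 regions and 1717 bp. Zinc finger protein genes had 5 of 391, or 1.28%. No gene of the folate, amino acid response, myogenic, sterol or autophagy lists, each with 20 to 34 genes matched, was a host.

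The difference of day 5 from day 0 in control medium compares libraries that both had to lack the regions, so the rule set no direction for it in the host genes. It was tested with limma on the percent of the gene body inside peaks, over the 9512 genes whose cover averaged at least 5% in the 10 WT libraries. All 10 WT libraries, the restricted ones included, entered that filter and the estimate of the spread. Of the 231 hosts 194 passed the filter, some through the restricted libraries where they were high, so the counts over hosts are a description and support nothing. In this contrast limma called 27.8% of all genes at a Benjamini-Hochberg adjusted p under 0.05, 12.2% higher and 15.6% lower at day 5. Among the 194 hosts 74 were called (38.1%), 32 higher and 42 lower. With only the 4 day 0 and day 5 control libraries in the filter and the fit, 20 of 189 hosts were higher and 24 lower. Together these were 23.3% of the hosts, beside 17.4% of 9782 genes. The smallest limma adjusted p over all genes was then 0.00418, so the smaller adjusted p-values given below rest on the spread shared with the other libraries. With all lists shortened to equal length 15.7% of 134 hosts were called, below the 25.4% of 8360 genes, so the order turned round. That setting dropped peaks by −log10 q and also changed the genes and hosts tested, so the part of list length was not tested. With each library centred on its median 46 hosts were higher and 31 lower, beside 1614 higher and 1299 lower over the 9512 genes. The balance of directions thus turned round in hosts and in all genes alike.

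Of the 5 hosts with the largest fall, 3 were on the DNA repair list and 1 on the centromere and mitosis list. Knl1 fell from 78.5% and 63.8% at day 0 to 10.9% in both day 5 control replicates, a difference of −60.3 percentage points (SE 5.51, limma adjusted p = 8.33e-05). Palb2 fell from 61.3% and 50.9% to 0 and 5.86% (−53.2, SE 4.71, limma adjusted p = 7.01e-05). Polq fell from 51.7% and 36.6% to 0.37% and 1.46% (−43.2, SE 4.69, limma adjusted p = 0.000229). Zgrf1, a DNA repair helicase, and Fancm also fell, by differences of −55.8 and −44.3 percentage points. Of the 10 hosts on the DNA repair list, 7 fell, beside 15.6% of all genes tested, and 3 did not pass the test, among them Atr and Rev3l with differences of 5.43 and 11.99 percentage points. Over the whole list 25 of 31 genes tested fell and none rose, on the replication list 33 of 40 fell, and on the centromere and mitosis list 30 of 39, each beside the same 15.6%.

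The hosts that rose most had low cover at day 0. Tmem62 rose from 15.5% and 10.1% to 65.1% and 55.7% (47.6 percentage points, SE 3.92, limma adjusted p = 4.46e-05). Nod2, a sensor of bacterial cell wall fragments, rose from 0.867% and 2.66% to 49.1% and 42.4% (44.0, SE 4.14, limma adjusted p = 9.85e-05). Spire1, an actin nucleator, rose by 32.5 percentage points, Emc2, a subunit of the ER membrane protein complex, by 28.4 and Rmdn1 by 28.1. Cobl and Patj, described above, also rose, Cobl by 17.2 percentage points (limma adjusted p = 6.64e-05) and Patj by 10.48 (limma adjusted p = 0.00225).

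The contrast of restricted with control medium in WT cells is the one that chose the regions, and its counts only describe them. At day 1 limma called 39 of 194 hosts higher, beside 2.38% of all genes, and 4 lower, beside 36%. At day 5 it called 42 higher, beside 4.32%, and 9 lower, beside 41.5%. Over all 9512 genes the calls in either direction made up 38.4% at day 1 and 45.8% at day 5, against 22.2% and 26.3% of the hosts. Both restricted libraries of a day lay above both control libraries of that day in 138 hosts at day 1, beside 7.24% of 19300 genes, and in 129 at day 5, beside 7.93%. Both day 5 restricted libraries lay above all 6 unrestricted libraries in 67 of 231 hosts, beside 2.07%, and both day 1 restricted libraries in 25, beside 0.938%.

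The KO lists were not used by the rule. In KO line 1 the regions held few peaks, most of them in control medium. At day 5, 22 of 314 regions (7.01%) overlapped a KO line 1 peak in control medium and 10 (3.18%) under restriction. By bases the shares were 5.39% and 2.26%. Over all territory shared by restricted WT replicates, the same libraries covered 34.3% and 13.4%, and over the control-only regions 13.9% and 9.85%. Each value is from 1 library, so the differences between media have no replicate check. Of the regions with a day 5 peak in KO line 1, 8 had it in both media, 14 in control medium only and 2 under restriction only. A single region, in Slc33a1 at chr3:63944895-63945457, had a KO line 1 peak under restriction and in no unrestricted KO line 1 list. Slc33a1 encodes an acetyl-CoA transporter, and 50.8% of that region was inside the KO line 1 day 5 restricted peak.

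Over all 10 KO lists, 24 regions (7.64%) overlapped a peak, all 24 of them in KO line 1 and 2 of them also in KO line 2. Both Osmr regions lay entirely inside KO line 1 peaks at day 5 in control medium, and to 33.2% and 48.7% under restriction. The whole Osmr gene was covered to 69.7% and 45.3% in those libraries and to 3.11% at day 0 in KO line 1, and in KO line 2 it was covered to at most 1.44%. The Cp region chr3:19967583-19968572 was inside the KO line 1 day 5 peaks to 96.8% in control medium and 100% under restriction. The region chr4:63733316-63733889, in the TNF family ligand gene Tnfsf15 and 148 kb from any unrestricted WT peak, lay to 35.2% and 66.4% inside them, and the Nod2 region to 94.8% and 39.4%. The region chr1:45370500-45371280, in no gene, lay to 81.4% and 58.8% inside them. Gene body cover under restriction against control medium at day 5 in the KO lines was tested with limma, with line as a term. Of 2635 genes tested 0% were called, with 65 at an unadjusted p under 0.05. Of the 231 hosts only 5 passed the filter on cover, with 0 called and 0 at an unadjusted p under 0.05. Mean cover over all genes was 11.1% (control) and 5.40% (restricted) in KO line 1 at day 5, and at most 0.218% in any KO line 2 library. Genes thus passed the filter mainly through KO line 1. A change in that line alone enters the spread, with 4 residual degrees of freedom, so the lack of calls shows nothing about the hosts.

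A pair of regions stood apart from the rest. The region chr1:27060980-27061484 (505 bp) lay in no gene, 1593 kb from the nearest unrestricted WT peak, and had peaks in all 4 restricted WT lists and in all 10 KO lists. The region chr12:113808034-113808561 (528 bp), within the immunoglobulin heavy chain locus Igh and 617 kb from the nearest unrestricted WT peak, had peaks in all 4 restricted WT lists and in 9 of 10 KO lists, among them all 5 of KO line 2. The 6 unrestricted WT lists had 0 peaks within 5 kb of either. In KO line 2 these were the only regions with a peak. The authors' fold enrichment of the peaks over the chromosome 1 region was 2.56 to 4.00 in restricted WT lists and 3.43 to 6.40 in KO lists. These regions alone supplied the KO line 2 values of the restriction-only panel in the plot of shares by library. In all 10 regions lay outside genes, and the longest of them were chr3:154623346-154624175 (830 bp), chr1:45370500-45371280 (781 bp), chr9:119216680-119217401 (722 bp), chr5:114139979-114140675 (697 bp), with chr4:150075513-150076126 and chr5:151639965-151640578 next at 614 bp each.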

How the data were processed

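H3K36me3 was measured in 20 libraries of C2C12 cells, and the input sample was not used here. The deposited files were 20 peak lists, called per library by the authors. The build was GRCm38, per the submitters' processing notes, while the peak caller, its control and its filters are not given in the sources used here. The authors' files give each peak a fold enrichment, a −log10 p, a −log10 q and a score, per the columns of the deposited lists. The fold and −log10 q were used to describe or filter peaks within a list, and the −log10 p and the deposited score were not used. The lowest deposited −log10 q was 1.

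Peaks of a library were merged, and regions were built from them by interval arithmetic (Python 3.11.15, numpy 2.4.6, pandas 2.3.3) that was tested on simulated data. A host is a gene whose body overlaps a region by any number of bases, in a table of 49939 RefSeq genes on GRCm38.p6. Where several genes did, protein-coding genes came first and then the longest overlap. Strand came from the RefSeq promoter table, where 245 regions had a host with strand. Cover is the percent of a gene body inside peaks, computed for protein-coding genes that span 2 kb or more. Those averaging at least 5% cover were fitted with limma 3.58.1 in R 4.3.3 (trend and robust settings), in 5 groups without a block for WT and with line as a term for KO. Adjusted p-values are Benjamini-Hochberg values over all genes tested, called under 0.05. Same-numbered WT replicates did not deviate together from their group means (correlations −0.439 to 0.0616 over genes), so the numbers were not taken as pairs. The value of −0.439, between day 0 and day 1 control, means that replicates of opposite number deviated together there. This was not modelled. Peak lists carry no depth, and no counting interval can be given.

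Genes were named as the hosts of the 12 longest regions, the 12 hosts with most restriction-only bases, the 12 with the largest share of the body, hosts on the gene lists, the longest regions outside genes, the largest day 0 to day 5 changes and the regions most covered in KO line 1 under restriction. Regions and genes noted beside these, among them those in all 4 restricted lists, those around promoters and the pair found in nearly all KO lists, were chosen after their values were seen. The values of 1 host on the DNA repair list are not reported here. The regions and the gene lists were chosen with earlier results of these data known. Alternatives were other peak thresholds, length minimums, list lengths, margins, filters and libraries left out.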

Additional observations from a re-analysis of the deposited data

Results flagged for a closer look

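The shares of restriction-only bases in the KO lines differed in sign between media at day 5. In KO line 1 the share inside peaks was 5.39% in control medium and 2.26% under restriction, a difference of −3.13 percentage points. In KO line 2 it was 0.349% and 0.452%, a difference of 0.103 percentage points that came from 2 regions. In those 2 regions the day 5 values of KO line 1 were nearly equal for chr1:27060980-27061484, 99.4% under restriction against 99.2% in control medium. For chr12:113808034-113808561 they were 99.4% against 55.1%. At day 1 KO line 1 had 78.2% under restriction against 55.8% in the first region. In the second it had 79.0% against 93.75%, the opposite direction. The day 5 lists differed in length in the same directions as the shares over all regions. They went from 73.2 to 45.4 Mb in KO line 1 and from 5.58 to 7.06 Mb in KO line 2. The part of list length in the shares was not tested. Each line has 1 library per medium, so the difference between lines was not tested.

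Chromosome X was outside the selection. The same conditions there gave 44 restriction-only regions over 29.9 kb and 49 control-only regions over 38.4 kb, where the autosomes gave 314 and 5656. X thus had 1.11 control-only regions per restriction-only region, and the autosomes had between 8.22 on chromosome 16 and 66 on chromosome 11. With every WT list shortened to equal length, a setting added after seeing the data, X gave 301 restriction-only and 37 control-only regions, or 0.123 per restriction-only region, and the autosomes had between 0.331 on chromosome 13 and 1.56 on chromosome 19. Covered length on X at day 5 was 2.50 and 2.24 Mb in control and 2.38 and 2.49 Mb in restricted WT libraries, so the groups overlapped. At day 1 it was 1.91 and 2.35 Mb in control and 1.88 and 1.58 Mb in restricted libraries, with no overlap. On the autosomes the day 5 values were 181 and 169 Mb in control and 129 and 132 Mb under restriction, with no overlap.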

How the results depend on the processing

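The number of regions depended on the rule's settings, as did the covered kb. A −log10 q of at least 2 in all lists gave 567 regions and 433 kb, and one of at least 3 gave 981 and 1074 kb, with 72.9% touching an unrestricted peak and 1.22% in KO line 1 restricted lists. A minimum of 200 bp gave 2601 regions and 910 kb (70.7% touching). A minimum of 1000 bp gave 12 regions and 16.2 kb (100% in genes, 16.7% in KO line 1 restricted lists), and one of 2000 bp gave 1 region and 2.84 kb (100% in genes, 0% touching, 0% in KO line 1). Lists shortened to equal length gave 5073 regions and 5461 kb (44.6% touching). With no unrestricted peak within 1 kb, 44 regions and 30.1 kb were left (9.09% in KO line 1 restricted lists), and touching has no value by construction. All 4 restricted libraries gave 3 regions and 1.76 kb (100% in genes, 0% in KO line 1). Leaving out each WT library in turn gave 350 to 2169 regions, 231 to 1464 kb, 91.7% to 97.2% in genes, 45.8% to 67.5% touching and 2.35% to 3.78% in KO line 1 restricted lists. Fewer lists had to agree there by construction.

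Alternatives added after seeing the data were the mirror settings, the shortened lists by chromosome and the next pair. Restricted peaks with a −log10 q of at least 3 against all unrestricted peaks gave 50 regions and 34.98 kb (96% touching), and presence in at most 1 of 6 unrestricted lists gave 1455 regions and 994 kb. Control-only regions numbered 16431, 1484 and 302 at minimums of 200, 1000 and 2000 bp, 3621 with shortened lists, 2170 with the 1 kb margin, 125 when all 4 control libraries were required and 5775 to 14622 without each library in turn.

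For day 0 to day 5, hosts called higher and lower were 7 and 27 of 111 tested at a −log10 q of at least 3, beside 594 and 1429 of 8179 genes. With shortened lists they were 8 and 13 of 134, beside 843 and 1279 of 8360 genes. With only the 4 libraries compared they were 20 and 24 of 189, beside 733 and 973 of 9782 genes. The extremes came without day 5 control replicate 1 (20 and 24) and replicate 2 (28 and 21), and without day 0 replicate 1 (41 and 28) and replicate 2 (24 and 52). The replicate block gave 28 and 38 of 194 hosts, beside 1078 and 1379 of 9512 genes. In KO lines no setting called a host or any other gene, the fit with no replicate block included. The cause of these shifts was not tested. Taken line by line, mean cover of hosts at day 5 in KO line 1 was 3.66% in control medium and 1.41% under restriction. Over all genes it was 11.1% and 5.40%. In KO line 2 it was 0.0795% and 0.0537% in hosts, beside 0.218% and 0.0705% over all genes. Each value is from 1 library, with no test.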
